A study of Mus musculus with 14 samples.

Results

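The guanylate-binding proteins are a family of large GTPases, and 10 of their mouse genes were measured among 17035 genes with a usable probe. Members were taken by their name in the array files, which found 7 genes, and by matching accessions to current RefSeq symbols, which added Gbp8 and Gbp9. Gbp11 was found through a synonym, and the accession of its probe is listed in the gene table under Gbp8, so the identity of that probe is uncertain. Several names in the files are old. The probe named Gbp6 measures today's Gbp7, Mpa2l is today's Gbp6, and Gbp1 is today's Gbp2b. In all 11 probes stood for the 10 genes, out of 41174 probes.

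Interferon gamma is a cytokine released by activated T cells. It binds a receptor that works through the kinases Jak1 and Jak2, and guanylate-binding protein genes are among the genes it induces, in immune and non-immune cells alike. The proteins bind and hydrolyse GTP, assemble on membranes around intracellular bacteria and parasites, help to break those compartments open and support inflammasome activation. They act beside the immunity-related GTPases, a second family of interferon-induced GTPases in the mouse.

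The tumours were B16F10, an established melanoma line of C57BL/6 mice, grown in that strain. CTLs activated in culture, specific for gp100 and carrying CD90.1, were transferred 9 days after tumour challenge, and tumours were taken 1, 3, 5 and 7 days later. The untreated and CTL arms had 4 arrays each, 1 for every such day, and every array carried the pooled RNA of 4 tumours. In the anti-IFNg and the control Rat IgG arms, CTLs were given with the named antibody, injected on days 0 and 2, and each arm had 3 arrays (days 3, 5 and 7), each a pool of 3 tumours. An arm therefore has a single array per day, days are its replicates, and the spread between single mice was not measured. The 2 antibody arms carry CTLs as well, so no array shows an antibody without transferred cells, and no array shows anti-IFNg or IgG on day 1.

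Between 48.9% and 59.7% of spots were well above background on an array, and the 75th percentile of the signal ran from 301 to 536. Melanocyte genes, the defining markers of the labelled tumour, were all measured (7 of 7), and their summed level lay between 1297 and 1826 times the 75th percentile over the 14 arrays. In whole tumours, a change in the number of cells that carry a transcript and a change in transcript per cell cannot be told apart. T cell markers (10 of 11 listed genes measured) summed to between 1.65 and 2.47 in untreated tumours, 2.05 and 13.9 with CTLs, 4.96 and 11.9 with IgG, and 2.54 and 4.49 with anti-IFNg. Monocyte and macrophage markers (11 of 11) summed to between 24.8 and 38.2, 40.2 and 171, 86.9 and 162, and 44.4 and 78.0 in the same order. Cd3g, Cd247, Cd8a, Zap70 and Itgam were below clear detection in all untreated tumours, and Cd247 and Itgam in all anti-IFNg tumours. So were the neutrophil markers Csf3r in all untreated and anti-IFNg tumours and S100a8 in all anti-IFNg tumours. The endothelial markers Cdh5 and Kdr were below clear detection in all IgG tumours. With CTLs 7 of the 10 T cell and 7 of the 11 macrophage markers rose, 4 of 8 endothelial markers fell, and 0 of 7 melanocyte markers passed the limma test described below (1 had an unadjusted p under 0.05). In that test 4.86% of all genes were called higher and 5.93% lower, and 6324 of 17026 genes had an unadjusted p under 0.05. Neutrophil markers (4 of 7) summed to between 0.281 and 0.994 in untreated tumours, 0.211 and 6.51 with CTLs, 1.26 and 50.1 with IgG, and 0.257 and 0.670 with anti-IFNg. Of the 4, 1 rose with CTLs, as did 2 of 4 keratinocyte markers, 1 of 2 erythroid markers fell, and 0 of 6 fibroblast markers passed (1 had an unadjusted p under 0.05). The part of these markers in the family's results was not tested.

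The family lies in 2 clusters. Levels are given as the log2 of the processed signal relative to the 75th percentile of the array, so 0 is the level of that percentile and a step of 1 is a doubling. The probes of Gbp5, Gbp7, Gbp3, Gbp2b and Gbp2 map to the plus strand of chromosome 3 in build mm8, at chr3:142459201-142459260, chr3:142483801-142483860, chr3:142510494-142510553, chr3:142556319-142556378 and chr3:142575141-142575200. Those of Gbp8, Gbp9, Gbp4, Gbp6 and Gbp11 map to the minus strand of chromosome 5, at chr5:105257990-105258049, chr5:105320229-105320288, chr5:105358363-105358422, chr5:105455567-105455626 and chr5:105563929-105563988. Each of these probes is 60 bases long, and whether they fall in coding or untranslated exons was not analysed here.

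The stretches upstream of the chromosome 3 genes are shown because the interferon-stimulated response element, the letters to which interferon regulatory factors are known to bind, is the sequence these genes share in the given promoters. Entries of the RefSeq promoter table (build GRCm38.p6) were matched for 5 of the 10 members, and Gbp4, Gbp6, Gbp8, Gbp9 and Gbp11 had none. In the 250 bases before the start, GAAA followed by any 2 bases and GAAA again, searched on both strands, was found in all 5, at 1 of 2 listed starts in the case of Gbp3. It was found in 2.98% of 32851 promoters. The windows are on the plus strand, which is the strand of the genes, and capitals mark the match, which reads on the minus strand. They span chr3:142496744-142496803, chr3:142530258-142530317, chr3:142559974-142560039, chr3:142594685-142594744 and chr3:142620579-142620638 in the order shown.
Gbp5: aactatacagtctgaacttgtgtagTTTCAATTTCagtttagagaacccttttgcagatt
Gbp7: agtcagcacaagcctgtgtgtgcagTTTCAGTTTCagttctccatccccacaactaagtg
Gbp3: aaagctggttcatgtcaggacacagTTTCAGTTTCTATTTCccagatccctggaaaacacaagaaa
Gbp2b: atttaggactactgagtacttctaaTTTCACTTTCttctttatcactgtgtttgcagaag
Gbp2: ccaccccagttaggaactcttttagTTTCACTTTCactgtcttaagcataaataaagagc

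In Gbp3 a pair of matches with different letters overlap, at 45 to 36 and at 39 to 30 bases before the start. Gbp2b and Gbp2 hold the same 10 letters, at 137 to 128 and at 59 to 50 bases before the start, and Gbp7 and Gbp3 share theirs, at 53 to 44 and at 45 to 36. The gamma-activated sequence, an element known from genes induced by interferon gamma, was searched as TTCNNNGAA, which is its own reverse complement. It was found in 7.02% of all promoters and, with the first element, in 0.332%. Gbp5 and Gbp7 had it, with TTCTCAGAA in both, at 52 to 44 bases before the start of Gbp5 and at 87 to 79 before that of Gbp7. Gbp5 also held TTCTGGGAA and Gbp7 held TTCCAGGAA, and no match overlapped the first element. A match describes these letters only, and no binding was measured.

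CTL transfer was accompanied by higher levels of the whole family, which peaked on day 3. Taking the chromosome 3 cluster first, Gbp2, a GTPase that is recruited to vacuoles holding parasites, had levels of -0.02, -1.05, 0.48 and -1.52 in untreated tumours of days 1, 3, 5 and 7. With CTLs its levels were 1.56, 7.04, 4.43 and 2.93 on those days. The day 3 tumours were far above all others of the arm, and even the day 1 array lay above every untreated one. In the scanner's own units, the processed signal of Gbp2 on day 3 was 226 in untreated tumours and 47121 with CTLs.

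Gbp5, a prenylated member known for promoting inflammasome assembly, was at -2.26, -3.51, -3.10 and -2.63 in untreated tumours and at -1.93, 3.73, 1.49 and 0.37 with CTLs. Gbp7, known to take part in moving oxidase and autophagy proteins to bacterial vacuoles, was at -2.82, -3.04, -2.50 and -3.75 without CTLs and at -1.41, 2.41, 0.21 and -0.30 with them. For both genes day 3 was highest and the order of days 3, 5 and 7 was downward. Gbp3 ran from -0.98, -2.25, -1.25 and -2.14 in untreated tumours to -0.32, 4.18, 2.47 and 1.57 with CTLs. Gbp2b was dim throughout. Its untreated levels were -6.30, -6.65, -6.66 and -6.53, none of them well above background, and its CTL levels were -5.92, -1.92, -2.48 and -4.77, with 2 of 4 arrays well above background.

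In the chromosome 5 cluster the untreated tumours were at the edge of detection for most members. Gbp4 was at -4.68, -6.64, -4.18 and -6.50 in untreated tumours, where 1 of 4 arrays was well above background, and at -2.83, 3.83, 1.23 and 0.25 with CTLs. Gbp6 was at -3.24, -5.59, -3.41 and -5.05, with 2 of 4 arrays well above background, and at -1.66, 4.63, 2.81 and 1.30 with CTLs. Both had low values in untreated tumours of days 3 and 7, which enter their same-day differences. Gbp11 was below clear detection in all untreated tumours, at -4.15, -6.23, -4.77 and -5.52, and reached -3.45, 3.33, 0.96 and -0.35 with CTLs.

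Gbp8 was not clearly detected in untreated tumours and was well above background on 3 of 4 arrays of the CTL arm. It was at -6.28, -6.12, -6.30 and -6.56 in untreated tumours and at -5.75, 1.49, -0.24 and -1.81 with CTLs, where the day 1 array was still not well above background. Gbp9 showed the smallest span, from -2.66, -3.07, -2.93 and -2.33 to -2.20, 0.25, -1.14 and -1.48, and all its arrays were well above background. A further probe listed for Gbp9 matches accessions of 4 family genes (Gbp4, Gbp6, Gbp9 and Gbp10), so it cannot be assigned. It gave -6.39, -6.74, -4.51 and -6.62 in untreated tumours and -6.55, 0.85, -1.07 and -2.31 with CTLs.

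**Figure D1:**
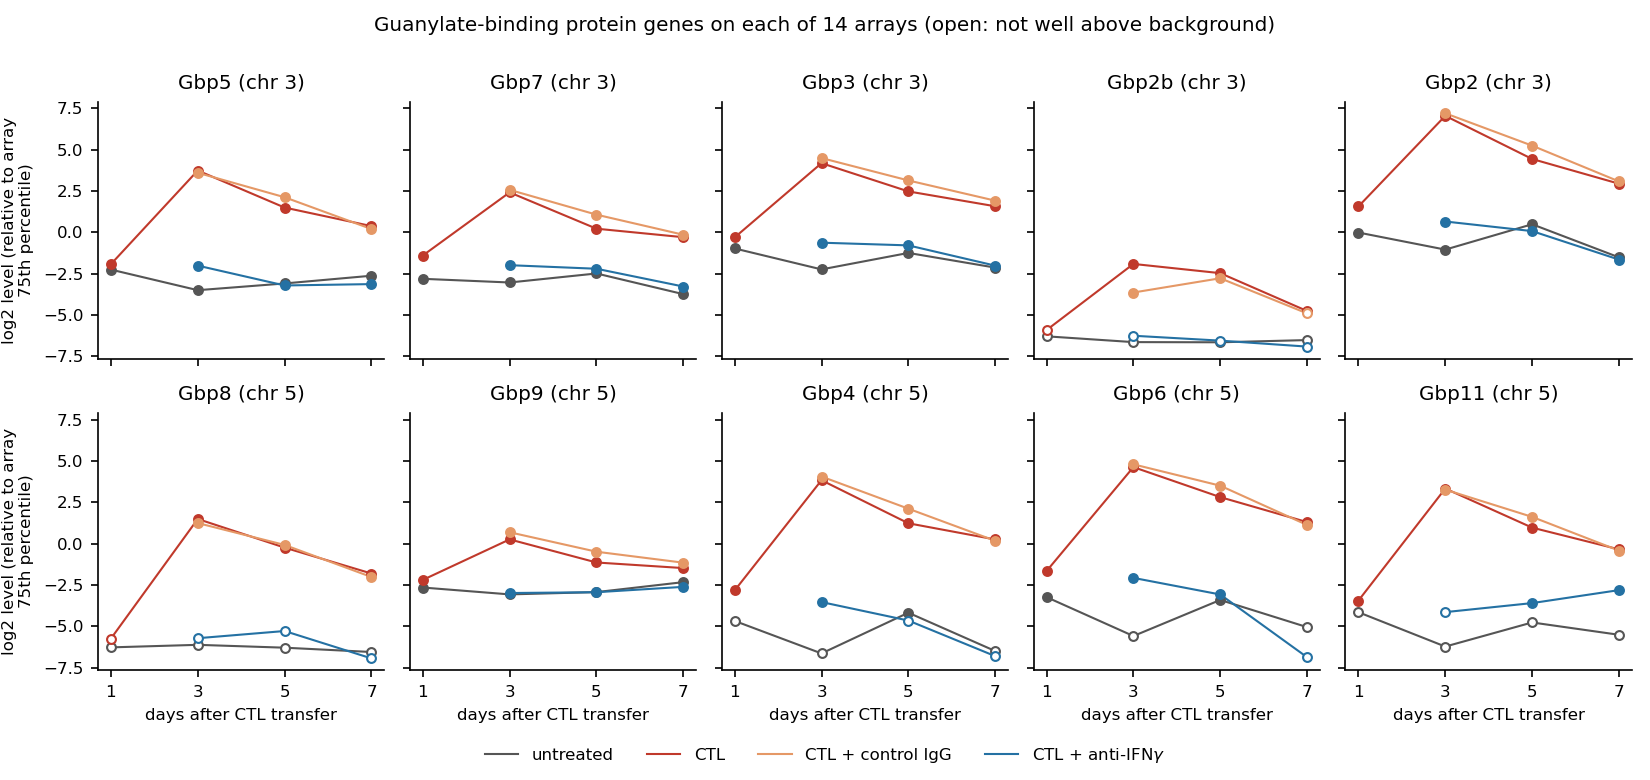
Log2 level, relative to the 75th percentile of the array, of each of the 10 genes (1 panel each) against days after CTL transfer, with 1 point per array. Lines join the arrays of an arm and open points are not well above background. In every panel the CTL and IgG points of days 3, 5 and 7 lie above all anti-IFNg and untreated points. For Gbp2b the CTL and IgG points of day 7 are open.

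Fitted over the 4 days with limma, which was run over all genes with arm and day as terms, 9 of the 10 members rose with CTLs and none fell. Over all genes 4.86% were called higher and 5.93% lower. Gbp4 rose by a log2 difference of 6.12 ± 1.08 (SE, n = 4 days) and Gbp6 by 6.09 ± 1.14, both with a limma adjusted p of 0.0398. Their sizes rest in part on untreated arrays that were not well above background (3 of 4 for Gbp4 and 2 of 4 for Gbp6). Gbp2 rose by 4.52 ± 0.82, Gbp5 by 3.79 ± 0.90, Gbp3 by 3.63 ± 0.71 and Gbp7 by 3.25 ± 0.53. Of the members with no untreated array well above background, Gbp11 rose by 5.29 ± 1.20, Gbp8 by 4.74 ± 0.92 and Gbp2b by 2.76 ± 0.64.

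For those 3 genes the size is a bound, taken against the lowest well-measured signal of each untreated array. Gbp11 was at least 21.9-fold higher, Gbp8 at least 6.74-fold and Gbp2b at least 1.47-fold, with limma adjusted p of 0.0420, 0.0398 and 0.0420. Gbp9 was higher on 4 of 4 days, by 1.61 ± 0.46, and did not pass (limma adjusted p = 0.0531). The unassigned probe, in a fit over all probes, gave 3.80 ± 0.96 (limma adjusted p = 0.0473). The median of the 10 differences was 4.15, or 3.71 with the 3 bounds in place, beside -0.08 for all genes. A gene was tested where at least 3 arrays were well above background. Gbp2b, Gbp8, Gbp4 and Gbp11 had fewer than 3 such arrays among the untreated and anti-IFNg ones, so they entered the test only through their CTL and IgG arrays, and their place among the genes tested already required a difference.

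Leaving out a day changed the calls. Without day 1, all 10 members rose, Gbp9 by 1.99 ± 0.49 (limma adjusted p = 0.0190) and Gbp6 by 7.60 ± 0.90 (0.00108), while 10.1% of all genes were called higher. Without day 3, without day 5 or without day 7 limma called 0 members and 0 genes in all, while 10, 9 and 10 members had an unadjusted p under 0.05. So had 2795 of 17031, 2370 of 17027 and 4667 of 17026 genes.

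The family's differences on single days were as follows, with 1 array per arm and no test. On day 1 all 10 members were above the untreated array, by between 0.33 (Gbp5) and 1.85 (Gbp4), with a median of 0.69, though Gbp2b and Gbp8 were not well above background on either array. Gbp4, Gbp2, Gbp6 and Gbp7 were past 2-fold, with differences of 1.85, 1.58, 1.58 and 1.41. On that day 1.95% of all genes were over 2-fold higher and 50.4% were above 0. The CTL array of day 1 lay above every untreated array in 10 of 10 members (13.0% of all genes) and below every later CTL array in 10 of 10 (27.7% of all genes).

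On day 3 the median difference was 7.43, or 6.83 with bounds, and the range ran from 3.33 for Gbp9 to 10.48 for Gbp4. Gbp2 and Gbp5, well above background on both arrays, differed by 8.09 and 7.24. Gbp6 was at least 525-fold higher on that day, Gbp4 at least 303-fold, Gbp11 at least 214-fold, Gbp8 at least 59.6-fold and Gbp2b at least 5.62-fold. The medians were 4.39 on day 5 and 4.08 on day 7, or 4.07 and 3.58 with bounds. In the CTL arm itself, levels stepped down from day 3 to day 5 to day 7 in 10 of 10 members, an order found in 16.9% of all genes.

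The later days were also set against day 1 in the same model. The CTL difference of days 3, 5 and 7 exceeded that of day 1 by between 1.53 ± 0.98 for Gbp9 and 6.12 ± 2.01 for Gbp11. None of the 10 passed (0.834% of all genes were called higher), although 9 had an unadjusted p under 0.05 (2460 of 17026 genes), and the smallest limma adjusted p was that of Gbp8, 0.0658, with a difference of 5.61 ± 1.11. The slope of the CTL difference over days 3, 5 and 7 was negative in all 10 members, from -0.17 ± 0.48 per day for Gbp6 to -0.78 ± 0.45 for Gbp11. None passed (limma adjusted p of 0.998 for each), 1 had an unadjusted p under 0.05 (705 of 17028 genes), and 0 of 17028 genes (0.0%) were called lower.

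The IgG arm repeated the pattern of CTLs alone. Gbp2 was at 7.19, 5.24 and 3.07 on days 3, 5 and 7, Gbp5 at 3.59, 2.11 and 0.19, and Gbp3 at 4.48, 3.13 and 1.91. Gbp7 was at 2.56, 1.06 and -0.15, and Gbp2b at -3.65, -2.79 and -4.91. Day by day these lay within 1 log2 step of CTLs alone, apart from Gbp2b on day 3. On chromosome 5, Gbp4 was at 4.06, 2.11 and 0.17, Gbp6 at 4.79, 3.50 and 1.13, and Gbp11 at 3.26, 1.61 and -0.43. Gbp8 was at 1.24, -0.08 and -2.02 and Gbp9 at 0.68, -0.49 and -1.16. Day 3 was highest and day 7 lowest in 9 of 10 members (14.8% of all genes), the exception being Gbp2b.

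Between IgG with CTLs and CTLs alone, none of the 10 members passed the limma test on the 12 arrays of days 3, 5 and 7. Over all genes 0.0117% were called, and 0 members had an unadjusted p under 0.05 (3207 of 17028 genes). The differences ran from -0.73 ± 0.54 for Gbp2b to 0.47 ± 0.49 for Gbp9, and the median was 0.29 beside 0.02 for all genes. The 95% intervals were wide. That of Gbp2, from -1.33 to 2.06, and that of Gbp4, from -1.65 to 2.33, leave room for differences of over 2-fold either way. The Gbp2b difference came mostly from day 3, at -1.73.

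When CTLs were given with anti-IFNg, measured levels of all 10 members were lower than with IgG on days 3, 5 and 7. Set against untreated tumours, the median difference of the members was 1.55 on day 3, 0.19 on day 5 and -0.30 on day 7. Gbp2 was at 0.65, 0.07 and -1.66 on days 3, 5 and 7, Gbp5 at -2.02, -3.22 and -3.14, and Gbp3 at -0.63, -0.80 and -2.02. Gbp7 was at -2.00, -2.21 and -3.29. Gbp2b, at -6.26, -6.56 and -6.92, was not well above background on any of these arrays. In the chromosome 5 cluster Gbp8, at -5.72, -5.29 and -6.94, was also not well above background on any of them.

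Gbp4 was at -3.54, -4.66 and -6.81, with 1 of 3 arrays well above background, and Gbp6 was at -2.08, -3.08 and -6.87, with 2 of 3. For both, the day 3 tumours were the highest of the arm. Gbp11, with 2 of 3 arrays well above background, went the other way, at -4.15, -3.60 and -2.81. Gbp9 was nearly level at -2.99, -2.94 and -2.62. The unassigned probe gave -5.90, -4.64 and -6.95. In all 10 members, every CTL and IgG array of days 3, 5 and 7 was above every anti-IFNg and untreated array, a separation found in 6.35% of all genes. Gbp2b, Gbp8, Gbp4 and Gbp11 were among the genes tested only through their CTL and IgG arrays, so the filter already favoured this separation in them. For Gbp2b the CTL and IgG arrays of day 7 were not well above background either, so part of its order is among signals not clearly detected.

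**Figure D2:**
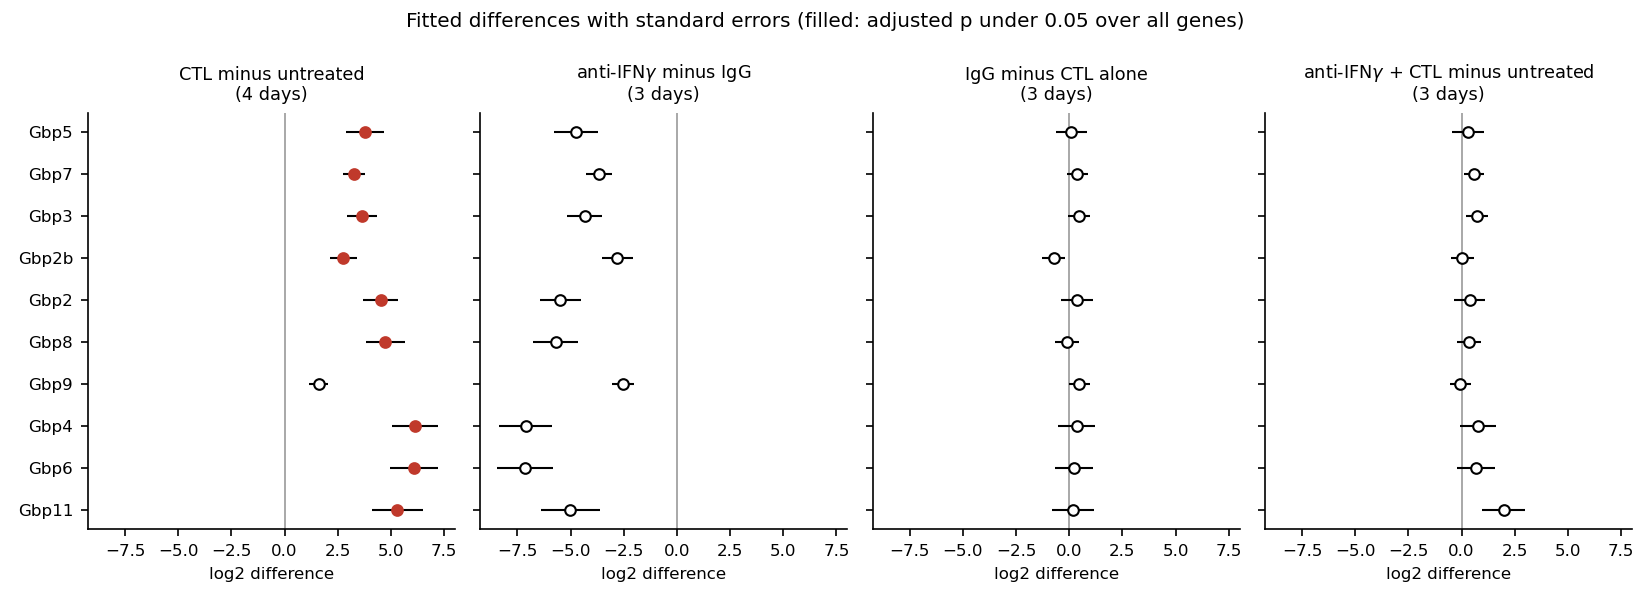
Fitted log2 difference of each gene in 4 comparisons, with bars of 1 standard error. Filled points passed an adjusted p of 0.05 over all genes. In CTL minus untreated 9 of 10 points are filled, and in anti-IFNg minus IgG all 10 lie left of 0 without passing.

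Against IgG, with all 14 arrays in the fit, all 10 members were lower, with log2 differences between -7.15 and -2.53. Gbp6 differed by -7.15 ± 1.31 (SE, n = 3 days), Gbp4 by -7.11 ± 1.25, Gbp2 by -5.48 ± 0.95, Gbp5 by -4.76 ± 1.04, Gbp3 by -4.33 ± 0.82 and Gbp7 by -3.65 ± 0.61. Of the anti-IFNg arrays behind the first 2 values, 1 of 3 for Gbp6 and 2 of 3 for Gbp4 were not well above background. Gbp11 differed by -5.00 ± 1.39 and Gbp9 by -2.53 ± 0.53. Gbp8 differed by -5.70 ± 1.07 and Gbp2b by -2.80 ± 0.73, which, measured against the detection edge, makes Gbp8 at least 16.5-fold and Gbp2b at least 1.46-fold lower.

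None of the 10 passed in that fit, and all 10 had an unadjusted p under 0.05, as had 4519 of 17026 genes. The limma adjusted p ran from 0.0552 to 0.0705, and 0.00587% of all genes were called lower. All 10 were lower on 3 of 3 days. Day 1 holds no array of either arm, so leaving it out keeps the differences as they are and changes only the spread, and the standard error of Gbp6 became 0.90. All 10 members then fell, with limma adjusted p from 0.00138 (Gbp8) to 0.0169 (Gbp11), while 5.93% of all genes were called lower. Gbp2b, Gbp8, Gbp4 and Gbp11 were tested only through their CTL and IgG arrays. The filter therefore already favoured lower levels with anti-IFNg in them, and their calls are no separate support. The unassigned probe differed by -5.44 ± 1.11 in the fit over all probes of 14 arrays (limma adjusted p = 0.0580). The median of the members was -4.88, or -4.54 with bounds, beside 0.06 for all genes.

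By day, the median difference between anti-IFNg and IgG was -6.08 on day 3, -5.19 on day 5 and -3.63 on day 7, or -5.41, -4.73 and -3.23 with bounds. As measured, all 10 members were over 2-fold lower on each day, as were 6.52%, 7.91% and 8.13% of all genes. The filter favoured this in Gbp2b, Gbp8, Gbp4 and Gbp11, which were tested only through their CTL and IgG arrays. Gbp2b is not clear of 2-fold on days 3 and 7. On day 3 its bound was 1.25-fold, and on day 7 neither of its arrays was well above background. From day 3 to day 7 the IgG level was lower by the end in 10 of 10 members (38.5% of all genes), with a median step of -3.33. The CTL arm had a median step of -3.31. The median step was -1.26 with anti-IFNg and 0.13 in untreated tumours.

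**Figure D3:**
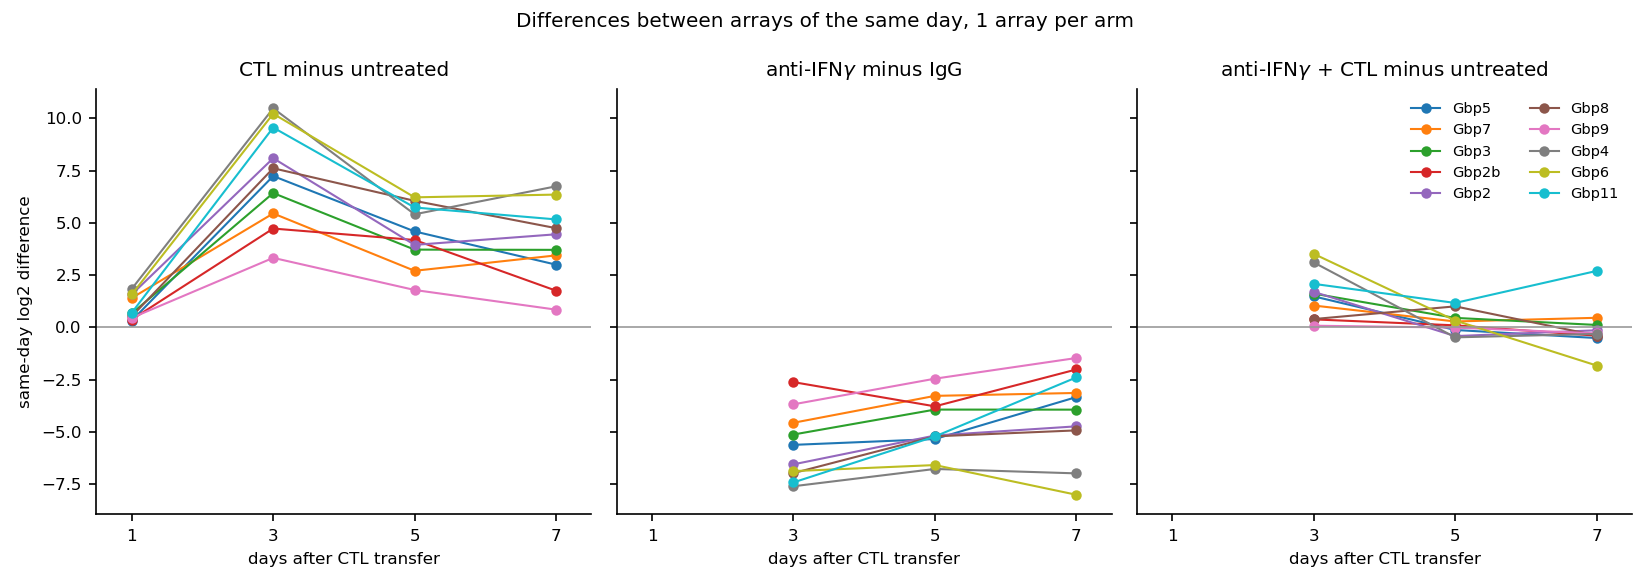
Log2 difference between arrays of the same day, 1 array per arm, against days after CTL transfer, with 1 line per gene. CTL minus untreated (left) stands highest on day 3, between 3.33 and 10.48, anti-IFNg minus IgG (centre) is below 0 for all 10 genes on days 3, 5 and 7, and anti-IFNg with CTLs minus untreated (right) is above 0 for all 10 genes on day 3 and for 3 on day 7.

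The anti-IFNg tumours were also set against untreated ones, to see what CTLs left in place under the block. None of the 10 members passed the limma test on 12 arrays, where 0.153% of all genes were called higher, and 0 members had an unadjusted p under 0.05 (1175 of 17028 genes). The differences ran from -0.07 ± 0.49 for Gbp9 to 1.99 ± 1.00 for Gbp11, with a median of 0.49 beside -0.03 for all genes. The 95% interval was -1.31 to 2.08 for Gbp2, -0.46 to 1.92 for Gbp3 and -0.50 to 1.69 for Gbp7, so a remaining difference of over 2-fold is within it for each.

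The days were not alike. On day 3 all 10 members were above untreated, with a median of 1.55, or 1.27 with bounds. Of these, 5 (Gbp2, Gbp3, Gbp5, Gbp7 and Gbp6) were over 2-fold higher by clear values or by their bound. Of all genes 47.0% were above 0 and 3.33% over 2-fold higher. Gbp2 differed by 1.70, Gbp3 by 1.62, Gbp5 by 1.49 and Gbp7 by 1.05 on that day, with both arrays well above background, while Gbp6 was at least 5.05-fold and Gbp4 at least 1.83-fold higher. Gbp11, Gbp8 and Gbp2b were not well above background on either array. On day 5, 6 members were above 0 (45.9% of all genes) and the median was 0.19. On day 7, 3 were above 0 (45.1% of all genes) and the median was -0.30. Gbp11 was at least 2.88-fold higher on that day, and 4 members (Gbp2b, Gbp4, Gbp6 and Gbp8) were not well above background on either array. These are single arrays, and differences of this size were not called in the fit.

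The 2 clusters were also summarised apart. The median CTL difference was 3.63 on chromosome 3 and 5.29 on chromosome 5, and the median anti-IFNg difference was -4.33 and -5.70. The chromosome 5 medians were the values of Gbp11 and Gbp8. Gbp11 was well above background on no untreated array (bound 4.45) and Gbp8 on no anti-IFNg array (bound -4.04). The ranges overlapped, from 2.76 to 4.52 on chromosome 3 and from 1.61 to 6.12 on chromosome 5, and no test was made between them. Over the 14 arrays, the 45 pairs of members had Pearson correlations from 0.887 to 0.994, with a median of 0.964. Such correlations describe arrays that share tumours, slides and scaling, and most of their spread is that between arms.

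**Figure D4:**
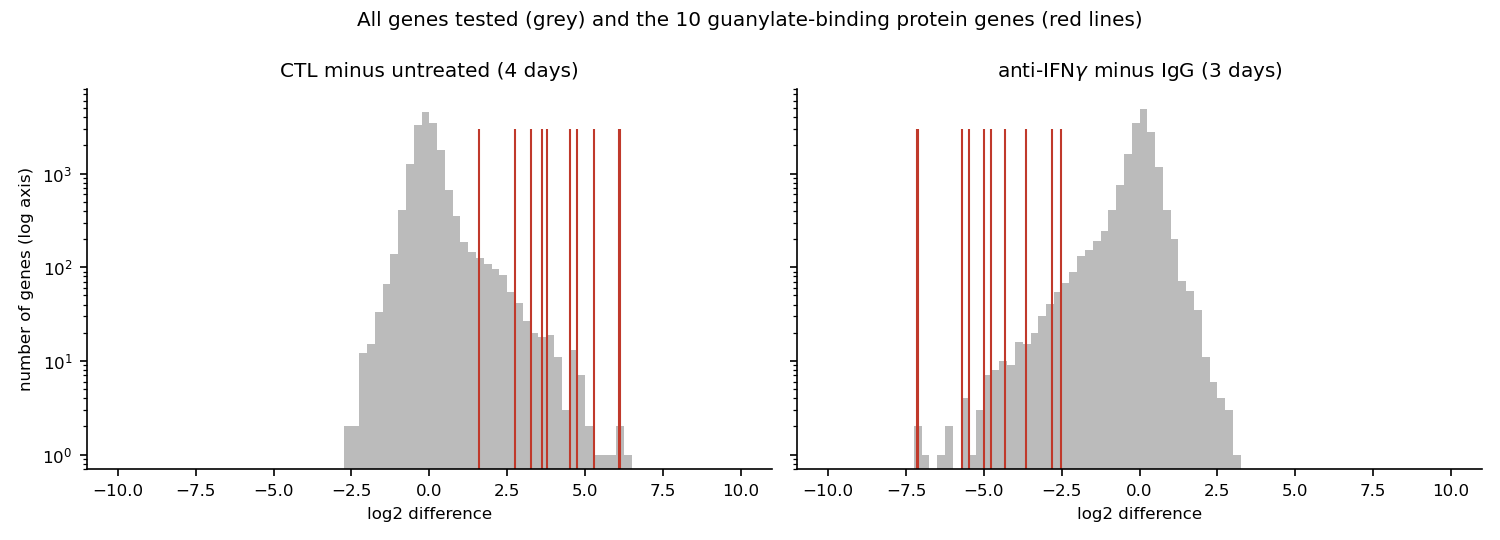
Number of genes (log axis) by fitted log2 difference, in bins of equal width, over all 17026 genes tested, for CTL minus untreated and for anti-IFNg minus IgG. Red lines mark the 10 family genes, which lie between 1.61 and 6.12 in the first and between -7.15 and -2.53 in the second.

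Outside the family, the 5 genes most like its mean profile over the 14 arrays were Irgm1 (Pearson r = 0.999), Irgm2 (0.997), Batf2 (0.997), Irf8 (0.996) and Ifi47 (0.996). Irgm1 and Irgm2 are immunity-related GTPases, and Irf8 is an interferon regulatory factor. Of the members, Gbp3 was closest to that profile (0.998), and Gbp2b (0.947) and Gbp9 (0.955) were farthest. Each member is itself part of the profile, which raises its own correlation, so members and outside genes are not ranked alike.

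The cytokine and its pathway were read on the same arrays. Ifng itself was at -4.44, -4.96, -4.32 and -6.05 in untreated tumours of days 1, 3, 5 and 7, and at -2.86, 2.74, 0.45 and -1.55 with CTLs. On days 3, 5 and 7 it was at 2.05, 0.36 and -1.62 with IgG and at 0.23, -1.58 and -3.24 with anti-IFNg. With anti-IFNg its transcript was above every untreated array on each of these days. Of the 12 pathway genes 7 rose with CTLs (4.86% of all genes) and none fell (5.93% of all genes), with a median of 1.37. Ifng rose by 4.64 ± 0.74, Irf8 by 4.39 ± 0.76, Irf1, a transcription factor of interferon responses, by 3.16 ± 0.58, and Irf9, another interferon regulatory factor, by 1.45 ± 0.26, each with a limma adjusted p of 0.0398. Ifng was well above background on 1 of 4 untreated arrays, so the size of its rise rests on dim values. Against IgG none of the 12 passed on 14 arrays, and 8 had an unadjusted p under 0.05 (4519 of 17026 genes). With day 1 left out 6 fell (5.93% of all genes). Irf1 then fell by 3.62 ± 0.51 (limma adjusted p = 0.00486), whereas Ifng differed by -1.79 ± 0.56 (0.0747).

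Genes that work with the family were counted in the same way. Of the 8 immunity-related GTPases listed 5 were measured and all 5 rose with CTLs (4.86% of all genes), with a median of 4.60. Irgm2 rose by 4.01 ± 0.64 and Tgtp1 by 4.91 ± 0.80. All 5 were lower with anti-IFNg than with IgG. None passed on 14 arrays, and 5 had an unadjusted p under 0.05 (4519 of 17026 genes). Without day 1, 5 of 5 fell (5.93% of all genes), with a median of -5.16. Of 4 other large GTPases measured (Gvin1, Mx1, Mx2 and Atl3), 1 rose with CTLs, Gvin1, by 2.80 ± 0.55 (limma adjusted p = 0.0398). The antiviral GTPases Mx2 and Mx1 differed by 2.15 ± 0.67 and 2.45 ± 1.07 and did not pass, and Mx1 was well above background on 1 of 4 untreated arrays. Without day 1, 2 of the 4 other large GTPases rose with CTLs (10.1% of all genes). In that setting 2 fell with anti-IFNg against IgG (5.93% of all genes).

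Of 10 inflammasome and pyroptosis genes, the machinery that guanylate-binding proteins help to activate, 3 rose with CTLs (4.86% of all genes). The median of the 10 was 1.35. Those that rose were Casp1, the inflammasome protease, by 2.53 ± 0.48, Zbp1, a nucleic acid sensor, by 5.00 ± 1.08, and Gsdmd, the pore-forming protein of pyroptosis, by 2.30 ± 0.58. Between anti-IFNg and IgG, 0 of the 10 passed the limma test with day 1 in the fit. An unadjusted p under 0.05 was found for 8 (4519 of 17026 genes). Without day 1, 7 rose with CTLs (10.1% of all genes) and 7 fell with anti-IFNg against IgG (5.93% of all genes). The ubiquitin-like conjugation and autophagy genes that direct the family to vacuoles stayed near the median of all genes. Of these 13, 1 rose with CTLs (4.86% of all genes), the ubiquitin ligase Trim21, by 1.93 ± 0.39, and the median was 0.03. Gabarapl2, an autophagy protein of the Atg8 family, differed by -0.26 ± 0.10, which missed the threshold (limma adjusted p = 0.105). Of 6 enzymes of protein prenylation, which anchors some members to membranes, 1 fell with CTLs, Fnta, by 0.71 ± 0.17 on the log2 scale (limma adjusted p = 0.0422), and the median was -0.23. Icmt, which methylates prenylated proteins, differed by -0.35 ± 0.11, which also missed it (limma adjusted p = 0.0621). Without day 1, 1 of the 13 conjugation and autophagy genes rose with CTLs and 2 fell with anti-IFNg against IgG. Of the 6 prenylation enzymes, 3 then fell with CTLs (3639 of 17028 genes) and 3 rose with anti-IFNg against IgG (1127 of 17028 genes).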

How the data were processed

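Each array carried Cy3-labelled RNA. Per the submitters' processing notes, Agilent Feature Extraction 9.5 quantified the scans. Spot intensity was deposited on a linear scale, and its processed signal is background-subtracted, per the file headers. The authors' deposited table of log2 values matched these values per array up to a constant (r = 1). From the scanner files, the log2 processed signal was centred on each array's 75th percentile over 43379 spots (controls excluded), without outlier spots. Probes well above background on at least 3 arrays were kept, and the brightest probe was used per gene. All 10 members passed. limma 3.58.1 in R 4.3.3 (lmFit, eBayes) was fitted with arm and day, on 14 arrays for CTL minus untreated, anti-IFNg minus IgG and the day 1 term, and on the 12 arrays of days 3, 5 and 7 otherwise. Adjustment was Benjamini-Hochberg over all genes (17026 or 17028 tested), two-sided, at 0.05. Each day is a slide, so the day term is the slide block and pairs the arms. Each arm kept its position on the slide, and the arm and position cannot be told apart. A pool of tumours per array limits what p-values measure to the spread between days. Every member was named, with the 2 to 4 genes of smallest p of each pathway list, the 5 genes most like the family, and marker genes that an arm lacked. Members and lists were chosen with earlier results of these data known. The scripts were tested on simulated data. A gene of the pathway list is not reported here.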

Additional observations from a re-analysis of the deposited data

How the results depend on the processing

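The members called in CTL minus untreated (9 of 10) numbered between 0 and 10 when single days were left out, 0 with only the arrays of the 2 arms, 0 with no replicate block (no day term) and 0 with no filter on dim probes. In anti-IFNg minus IgG (0 of 10) they numbered between 0 and 10 without single days, 8 with only the 2 arms, 7 after normexp background correction and 8 with a strict filter (clear detection throughout at least 1 arm). With no replicate block they stayed at 0. Normexp, which adds an offset of 50 to every signal, also lowered the median CTL difference from 4.15 to 2.72 and left 6 members called. The strict filter called 1 member higher, Gbp8, for days 3 to 7 minus day 1, among 187 of 15360 genes, and normexp called 1 lower, Gbp2b, for the slope, among 4549 of 17028. Over all genes, CTL minus untreated called 1837 genes, 5360 without day 1, 0 without day 3, 5 or 7, 1 with only the 2 arms, 5 with no replicate block, 489 with normexp and 6 with no filter. Anti-IFNg minus IgG called 2, and 2136 without day 1, 912 with the 2 arms, 184 with normexp and 832 with the strict filter.

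No called difference changed sign under the alternatives run. Among uncalled ones, leaving out single days gave ranges that crossed 0. For IgG minus CTL these were -0.07 to 0.29 for Gbp11, -0.16 to 0.24 for Gbp5 and -0.0022 to 0.43 for Gbp6, with the lowest value without day 5. For anti-IFNg with CTLs minus untreated they were -0.275 to 0.78 for Gbp2, -0.39 to 1.40 for Gbp4, -0.31 to 0.68 for Gbp5, -0.75 to 1.92 for Gbp6 and -0.15 to 0.24 for Gbp2b, with the lowest value without day 3, and for Gbp2b also -0.0048 without day 5. For Gbp9 the range was -0.15 to 0.038, the highest without day 7. For the slope they were -1.14 to 0.23 for Gbp2, -0.77 to 0.11 for Gbp3, -1.20 to 0.58 for Gbp4, -0.89 to 0.55 for Gbp6 and -0.90 to 0.33 for Gbp7, the highest without day 3. With normexp, IgG minus CTL turned for Gbp8 (0.038), and anti-IFNg with CTLs minus untreated for Gbp2b (-0.072) and Gbp8 (-0.060). The latter comparison also turned for Gbp2b with quantile normalization (-0.026) and for Gbp9 with the mean of all probes (0.027). The cause was not tested.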
